A study of Mus musculus with 10 samples.

Results

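Mitochondrial ribosomal protein genes were described in primary mouse hepatocytes in which a subunit of histone methyltransferase complexes, WDR5, or a histone acetyltransferase, KAT2B, had been depleted and which were then given glucagon or buffer. The members are the genes whose array feature (a probe set for 1 transcript cluster) carries exactly 1 gene symbol beginning Mrpl or Mrps followed by a digit. For each gene the feature with the highest mean over the 10 libraries was used. The rule gave 77 genes out of 16401 genes with such a feature, 48 of them Mrpl (large subunit by symbol) and 29 Mrps (small subunit by symbol). All 77 passed the filter on low signal described below. Mrpl53 was left out because its feature carried a second symbol.

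The cells were from male C57BL6/J mice of 10 weeks. Every group, controls included, received an adenovirus at 2 to 4 plaque-forming units per cell 72 h before treatment, with an shRNA that was non-specific (shNS) or directed at Wdr5 (shWDR5) or Kat2b (shKAT2B). Cells were then treated for 90 min with 100 nM glucagon or with PBS. Of the 6 groups, 4 had 2 libraries lettered A and B (shNS with PBS, shNS with glucagon, and either depletion with glucagon), and 2 had a single library, A (either depletion with PBS). Each library pooled the RNA of 3 dishes. Nothing in the labels says that A and B came from separate animals, so all p-values measure only the spread between these pools, which may be technical. Values are log2(intensity + 1), called log2 intensity below. Arrays have no sequencing depth, and precision is limited by having 10 libraries.

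The mitochondrial ribosome translates the few proteins that mitochondrial DNA encodes, all of them subunits of oxidative phosphorylation complexes. All of its proteins are encoded in the nucleus, made in the cytosol and imported, so their supply depends on nuclear transcription. Some are homologues of bacterial ribosomal proteins and others exist only in mitochondria. In the liver, fasting and glucagon raise the coactivator gene Ppargc1a, whose protein can act through the nuclear respiratory factors NRF1 and GABP (an ETS-family factor) on promoters of mitochondrial genes. The symbols are historical in places: the products of Mrps18a and Mrps30 sit in the large subunit, and the product of Mrps36 has been reassigned to the alpha-ketoglutarate dehydrogenase complex.

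Promoter sequences are shown first, for the 4 members that passed the test under depletion of KAT2B and for Mrpl17, which holds 2 kinds of motif match. They are the 250 bases before the RefSeq start of the gene in GRCm38.p6, written 5′ to 3′ on the strand of the gene, with motif matches in capitals.

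Mrpl12: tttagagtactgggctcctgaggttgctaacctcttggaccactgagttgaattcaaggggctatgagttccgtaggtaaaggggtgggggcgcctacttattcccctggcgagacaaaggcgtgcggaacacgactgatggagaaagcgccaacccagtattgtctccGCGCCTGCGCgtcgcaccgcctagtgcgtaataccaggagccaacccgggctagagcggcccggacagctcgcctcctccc

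Mrpl14: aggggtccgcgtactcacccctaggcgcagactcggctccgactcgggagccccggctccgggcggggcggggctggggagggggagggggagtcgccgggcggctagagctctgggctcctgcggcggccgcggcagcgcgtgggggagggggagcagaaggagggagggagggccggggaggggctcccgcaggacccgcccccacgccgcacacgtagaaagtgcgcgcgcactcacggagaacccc

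Mrpl49: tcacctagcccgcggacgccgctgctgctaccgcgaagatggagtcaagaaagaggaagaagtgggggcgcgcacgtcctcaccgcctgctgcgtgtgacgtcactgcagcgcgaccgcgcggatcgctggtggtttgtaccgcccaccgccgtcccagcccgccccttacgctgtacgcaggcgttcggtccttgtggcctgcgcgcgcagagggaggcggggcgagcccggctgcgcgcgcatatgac

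Mrps36: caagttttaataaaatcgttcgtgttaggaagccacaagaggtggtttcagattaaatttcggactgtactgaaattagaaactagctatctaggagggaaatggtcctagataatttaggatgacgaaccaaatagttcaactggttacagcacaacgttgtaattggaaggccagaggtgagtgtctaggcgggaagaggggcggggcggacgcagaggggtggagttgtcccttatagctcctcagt

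Mrpl17: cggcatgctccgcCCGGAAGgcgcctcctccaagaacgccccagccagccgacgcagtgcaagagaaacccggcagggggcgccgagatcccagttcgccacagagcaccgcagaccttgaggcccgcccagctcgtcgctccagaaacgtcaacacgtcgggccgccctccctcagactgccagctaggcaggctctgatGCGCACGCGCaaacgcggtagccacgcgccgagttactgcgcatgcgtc

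These windows lie at chr11:120484387-120484636 on the plus strand (Mrpl12), chr17:45686099-45686348 on the plus strand (Mrpl14), chr19:6057756-6058005 on the minus strand (Mrpl49), chr13:100744660-100744909 on the minus strand (Mrps36) and chr7:105811088-105811337 on the minus strand (Mrpl17). Then 3 letter patterns were searched on both strands in windows of 300 bases, 250 before the start and 50 after it: GCGC, any 2 bases and GCGC again for NRF1, CCGGAAG for ETS factors and AAGATGGCG for YY1. RefSeq windows matched 68 of the 77 members. The NRF1 pattern was in 14 of these 68 (20.6%, against 7.0% of all 27025 genes with a window), the ETS pattern in 25 (36.8%, against 9.93%) and the YY1 pattern in 8 (11.8%, against 1.64%). At least 1 of the patterns was in 41 members (60.3%, against 16.6%), in 27 of 42 Mrpl genes and 14 of 26 Mrps genes. The 68 members had 74 windows, and a gene was counted if any of its windows matched. No window held overlapping matches of different patterns (0 windows). Mrpl12 holds the NRF1 pattern in the printed stretch, Mrpl14 holds it just after the start and so outside the print, and Mrpl49 and Mrps36 hold none of these letters in their windows. The 27025 genes were not limited to those that passed the filter on low signal, nor matched to the members in base composition. A match is only a match of letters, and factor binding was not measured.

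The checks of the series touched the members as follows. Wdr5 fell by 1.74 (log2) in shWDR5 libraries, and Kat2b fell by 2.70 in shKAT2B libraries, each lower in every library of its arm than in any other. Hepatocyte markers were not all bright. Albumin lay between 13.37 and 13.84 log2 intensity, but Cps1 lay between 6.76 and 8.26 and Tat with PBS between 7.41 and 8.78. The summed intensity of 9 hepatocyte markers was 49917 to 57649 in shNS, 44985 to 49872 in shWDR5 and 42075 to 46142 in shKAT2B libraries. Of the 9, 2 were called lower under shWDR5 (list median -0.19) and 4 under shKAT2B (list median -0.46). Within each library set described next and each treatment, all 9 were lower in shKAT2B than in shNS. With shWDR5, Apob and Tat were not lower throughout. In bulk RNA, fewer cells of a type and less RNA per cell cannot be told apart. The libraries also fell into 2 sets in the residuals of the fit: the A libraries of the 4 groups with 2 libraries (first set) and the remaining 6, which include both lone PBS libraries (second set). The labels do not name these sets. The sum of 14 Kupffer cell and leukocyte markers was 7220 to 8930 in the first set and 10672 to 14869 in the second, and that of 11 stellate cell and fibroblast markers was 9705 to 9879 and 7142 to 7469. Of these markers, 11 and 10 passed the filter. Endothelial markers (12, of which 11 passed) summed to 4413 to 4973 and 5523 to 7263. Markers of other cells also moved with the depletions. The Kupffer cell and leukocyte list had median differences of 0.25 under shWDR5 and 0.43 under shKAT2B with 0 of 11 called (0 and 1 at an unadjusted p below 0.05 in limma's fit), and 0.16 and 0.28 with 4 and 7 called, all higher, once the library set was a term (6 and 6, all higher, with the replicate letter as a block). Its sum was 7220 to 11580 in shNS, 8930 to 12466 in shWDR5 and 8358 to 14869 in shKAT2B libraries. The endothelial list had medians of 0.27 and 0.23, with Eng called higher under shKAT2B (0.48). Of 3 cholangiocyte markers, Krt19 (-0.80) and Krt7 (-0.46) were called lower under shWDR5 and Krt7 (-0.44) under shKAT2B. The stellate cell and fibroblast list had medians of 0.02 and 0.11, and its genes went both ways. Tagln was called lower under both (-0.32 and -0.45) and Thy1 under shKAT2B (-0.29), and none was called higher. Dcn was higher in every pair within a set, by 0.35 to 0.41 with shWDR5 and 0.31 to 0.42 with shKAT2B. Col1a1 was higher by 0.28 to 0.49 with shKAT2B. The part of other cell types in the results below was not tested.

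Differences between arms and treatments were fitted with limma on 11480 genes, and a gene was called at a Benjamini-Hochberg adjusted p below 0.05 over all of them. Errors after ± are the fit's standard errors. Where the library set or the replicate letter enters a fit, it does so as a term beside arm and treatment. Both fits have limits. The sets were read from these same data, so p-values of fits with the set term are too small. The letter block groups the lone PBS libraries with the first set, although their values lay with the second. Comparisons of either hairpin with shNS share the 4 shNS libraries, so their values are given side by side and not as separate evidence. Each target had a single hairpin arm, and effects of a hairpin beyond its target were not tested.

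The mitochondrial ribosomal protein genes barely differed between the arms and treatments. Their median difference was -0.03 under shWDR5, -0.03 under shKAT2B and 0.00 under glucagon, against -0.01, 0.01 and 0.01 for all genes tested. Their median absolute difference was 0.05, 0.07 and 0.04, against 0.12, 0.13 and 0.06. None of the 77 differed by more than 0.5 (log2) in any of these comparisons (0 genes), while 5.11%, 7.33% and 0.976% of all genes tested did. In each comparison taken alone, the 95% interval of the difference lay within 1.5-fold for 75 of the 77 (97.4%), against 82.6%, 80.4% and 93.9% of all genes. It did so in all 3 comparisons for 74, the exceptions being Mrps21, Mrps26 and Mrps35. All 77 intervals lay within 2-fold. The members are not replicates of one another, and these shares are a description.

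**Figure D1:**
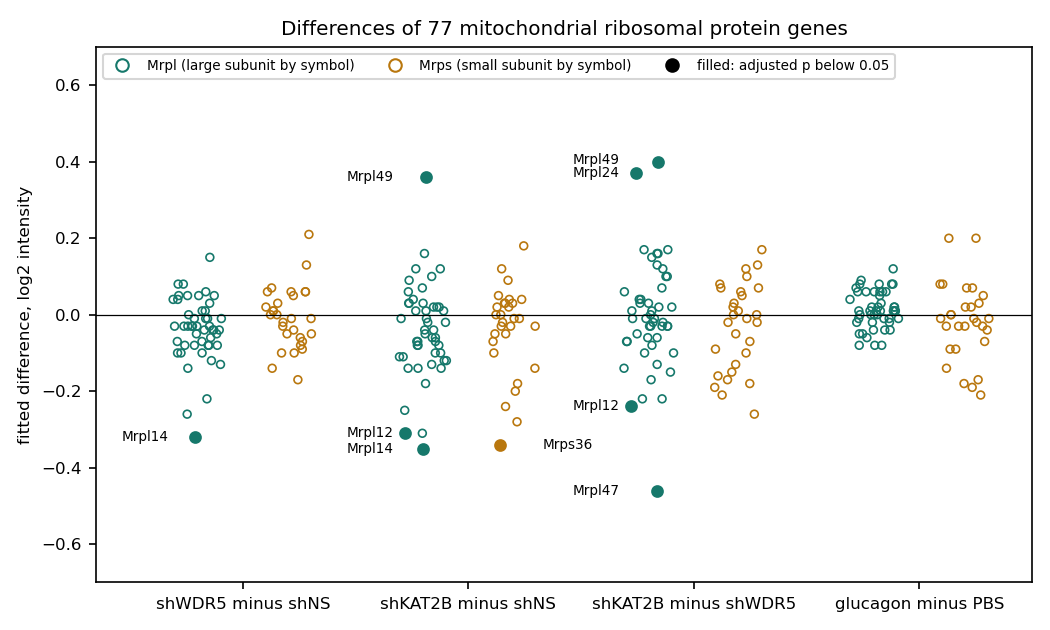
Fitted log2 differences of the 77 genes (y axis) in 4 comparisons (x axis), Mrpl genes in green and Mrps genes in brown, with filled points for genes at an adjusted p below 0.05. Most points lie close to 0. The names mark 9 calls on 6 genes, since a gene can be called in more than 1 of the 3 comparisons of arms, which share libraries. Of the 9 calls 8 are on Mrpl genes, which are 48 of the 77, and 1 is on Mrps36. Of all genes tested 10.9% were called for shWDR5 minus shNS, 15.6% for shKAT2B minus shNS and 22.7% for shKAT2B minus shWDR5.

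**Figure D2:**
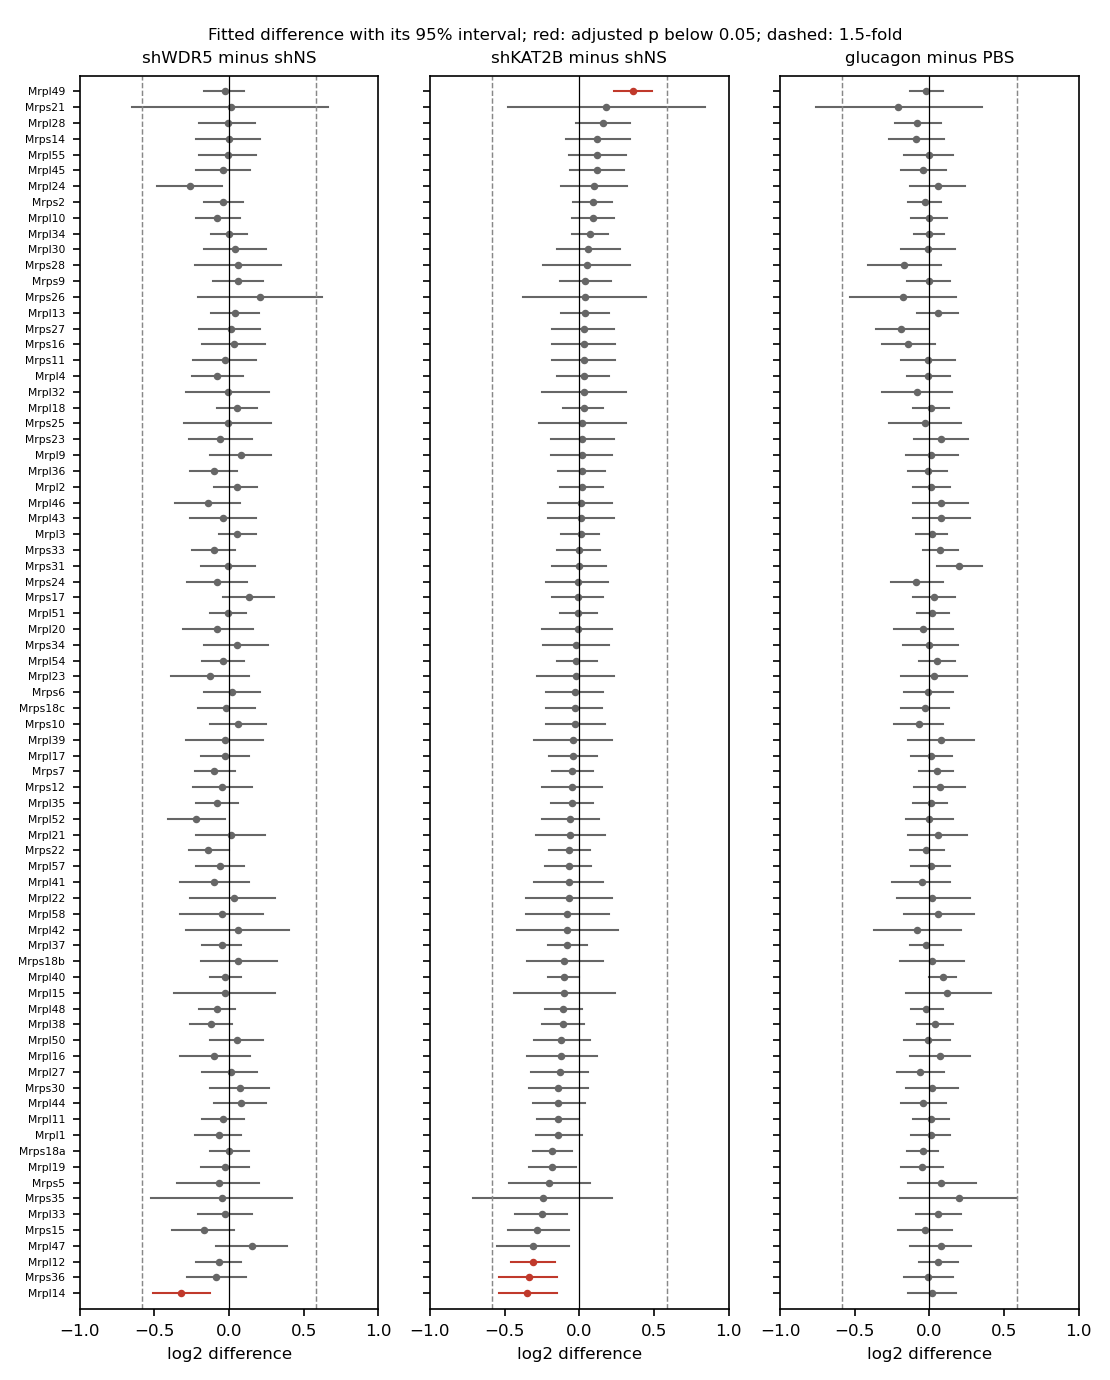
Fitted log2 differences (points) with their 95% intervals (bars) for each of the 77 genes in 3 comparisons, ordered by the shKAT2B difference, with dashed lines at 1.5-fold. In each panel 75 of 77 intervals lie within the dashed lines, and the bar of Mrps21 is the widest.

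Mrpl and Mrps genes were compared by the median of their deviations from their own means, and their levels as such were not compared. The median deviation of the 77 genes from their own means lay between -0.06 (shWDR5 glucagon B) and 0.04 over the 10 libraries. The median deviation of Mrpl genes minus that of Mrps genes lay between -0.05 and 0.03. It was 0.00 to 0.03 in the first library set and -0.05 to 0.01 in the second. Under shWDR5 the median was -0.03 for Mrpl and -0.01 for Mrps genes, under shKAT2B -0.05 and -0.01, and under glucagon 0.01 and -0.01. A feature's brightness depends on its probes, so levels of different genes are not ranked as amounts of RNA. The dimmest features, by mean, were those of Mrps12 (7.81), a protein of the decoding centre, Mrpl44 (7.92), a protein with a ribonuclease III-like fold, and Mrps25 (8.14). The brightest were those of Mrps21 (12.28), Mrps18b (11.86) and Mrpl39 (11.62).

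In the comparison of shWDR5 with shNS 1 member was called lower, Mrpl14. Of all genes tested 10.9% were called in this comparison (4.69% higher and 6.17% lower), against 1 of 77 members (1.3%). At an unadjusted p below 0.05 there were 3 members, and at least 10.9% of all genes, since every called gene lies below it. Mrpl14 is the homologue of bacterial L14, which lies at the interface of the subunits.

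Mrpl14 stood at 9.56 and 9.48 log2 intensity in shNS PBS (A, B), 9.44 and 9.56 in shNS glucagon, 9.21 in shWDR5 PBS and 9.29 and 9.08 in shWDR5 glucagon. Its shKAT2B levels were 9.08 with PBS and 9.11 and 9.31 with glucagon. Every library of either depletion lay below every shNS library. The shWDR5 difference was -0.32 ± 0.09 (limma adjusted p = 0.0443, 1.25-fold), and -0.15, -0.48 and -0.27 in first-set glucagon, second-set glucagon and second-set PBS libraries, each 1 library against 1. The call sits at the threshold. It was lost when any 1 of 8 libraries was left out (all except the pair of shKAT2B glucagon libraries), with adjusted p from 0.0514 to 0.162. It was kept with the library set as a term (0.00462) and with the replicate letter as a block (0.0205), within the limits of these fits given above. Tmem63b, which overlaps Mrpl14 in the RefSeq table, also fell under shWDR5 (-0.23, adjusted p = 0.0125), and whether the features share transcript sequence was not tested.

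Mrpl24, a homologue of bacterial L24 that binds early in large-subunit assembly, stood at 9.99 to 10.08 in the 4 shNS libraries and at 9.69, 10.03 and 9.69 in the shWDR5 libraries (PBS A, glucagon A, glucagon B). The middle value overlapped the shNS libraries. Its difference of -0.26 ± 0.10 did not pass (limma adjusted p = 0.123). It passed with the library set as a term (-0.23, 0.0126) and with the letter block (-0.29, 0.0283), within the same limits. Mrpl52, a mitochondria-specific protein, had a difference of -0.22 ± 0.09 (adjusted p = 0.143). On the higher side no member was called, and those with the smallest p were Mrps17 (0.13 ± 0.08, adjusted p = 0.313) and Mrpl47 (0.15 ± 0.11, 0.419). With the library set as a term 5 members were called (Mrpl14, Mrpl24, Mrpl52 and Mrps15 lower, Mrpl47 higher), beside 36.8% of all genes (18.8% higher and 18.1% lower). With the letter block 3 were called (Mrpl14 and Mrpl24 lower, Mrps26 higher), beside 26.7% of all genes (11.0% higher and 15.7% lower). The Mrps26 difference was 0.30 with the block but 0.11 with the set term (limma adjusted p = 0.203). Within the sets it was 0.24, 0.11 and -0.05, and Mrps26 differed by 0.45 between the sets. On the second set alone, with 1 library a group, 6 were called, beside 27.9% of all genes.

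In the comparison of shKAT2B with shNS 1 member was called higher, Mrpl49, and 3 lower, Mrpl12, Mrpl14 and Mrps36. Of all genes tested 15.6% were called (6.66% higher and 8.95% lower), against 4 of 77 members (5.19%). At an unadjusted p below 0.05 there were 10 members, and at least 15.6% of all genes, since every called gene lies below it. Of the groups fixed by role, the called members came from 29 large-subunit homologues of bacterial proteins (2 lower, Mrpl12 and Mrpl14) and 21 mitochondria-specific large-subunit proteins (1 higher, Mrpl49). None was called among 16 small-subunit bacterial homologues (1 at an unadjusted p below 0.05) or 10 mitochondria-specific small-subunit proteins (0 at that p), in limma's fit. The remaining called member, Mrps36, was placed in none of these groups.

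Mrpl49, a mitochondria-specific protein of the large subunit, stood at 10.79 and 10.66 in shNS PBS and 10.74 and 10.71 in shNS glucagon. It stood at 10.74 in shWDR5 PBS, 10.66 and 10.66 in shWDR5 glucagon, 11.08 in shKAT2B PBS, and 11.02 and 11.15 in shKAT2B glucagon. The 3 shKAT2B libraries were higher than the other 7. The difference from shNS was 0.36 ± 0.06 (limma adjusted p = 0.00372, 1.28-fold) and it was 0.28, 0.44 and 0.42 in first-set glucagon, second-set glucagon and second-set PBS libraries. It was called whichever library was left out, with an adjusted p of at most 0.0354. Syvn1, which overlaps Mrpl49 in the RefSeq table, had a difference of 0.17 ± 0.07 (adjusted p = 0.18).

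Mrpl12 is the homologue of the bacterial stalk protein L7/L12, which recruits translation factors, and it has also been found on the mitochondrial RNA polymerase. It stood at 10.24, 10.17, 10.18 and 10.38 in the shNS libraries (PBS A and B, glucagon A and B), at 10.20, 10.17 and 10.18 in the shWDR5 libraries and at 9.87, 10.00 and 9.97 in the shKAT2B libraries. The shKAT2B libraries were lower than all others, while shWDR5 lay within the shNS range. The shKAT2B difference was -0.31 ± 0.07 (limma adjusted p = 0.0146, 1.24-fold), and -0.18, -0.41 and -0.30 within the sets in the order above. Without the shKAT2B PBS library it was -0.27 (adjusted p = 0.119) and without shKAT2B glucagon B -0.31 (0.0536).

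Mrpl14 had a difference of -0.35 ± 0.09 under shKAT2B (limma adjusted p = 0.0243, 1.27-fold), and -0.33, -0.25 and -0.40 within the sets. The difference between the 2 depletions was -0.03 ± 0.09, with a 95% interval from -0.23 to 0.18. Its call was lost without shKAT2B PBS A (adjusted p = 0.186), shKAT2B glucagon A (0.0546), shNS PBS A (0.0518), shNS PBS B (0.0545) or shNS glucagon B (0.0634). Tmem63b had a difference of 0.14 ± 0.04 here (0.0682), the opposite sign to that of Mrpl14.

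Mrps36, whose product is now placed in the alpha-ketoglutarate dehydrogenase complex, stood at 8.40 and 8.66 in shNS PBS, 8.38 and 8.57 in shNS glucagon, 8.35 in shWDR5 PBS and 8.45 and 8.44 in shWDR5 glucagon. With shKAT2B it was at 8.18 (PBS) and 8.13 and 8.18 (glucagon), lower than in every other library. The difference was -0.34 ± 0.09 (limma adjusted p = 0.0277, 1.27-fold), within the sets -0.26, -0.40 and -0.48, and its second feature gave -0.39. The call was lost, with adjusted p from 0.0501 to 0.126, without any 1 of the 3 shKAT2B libraries, the B libraries of shNS PBS and shNS glucagon, or the shWDR5 PBS library. It was kept with the set term (0.00105) and the letter block (0.0105), within the limits of these fits given above.

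**Figure D3:**
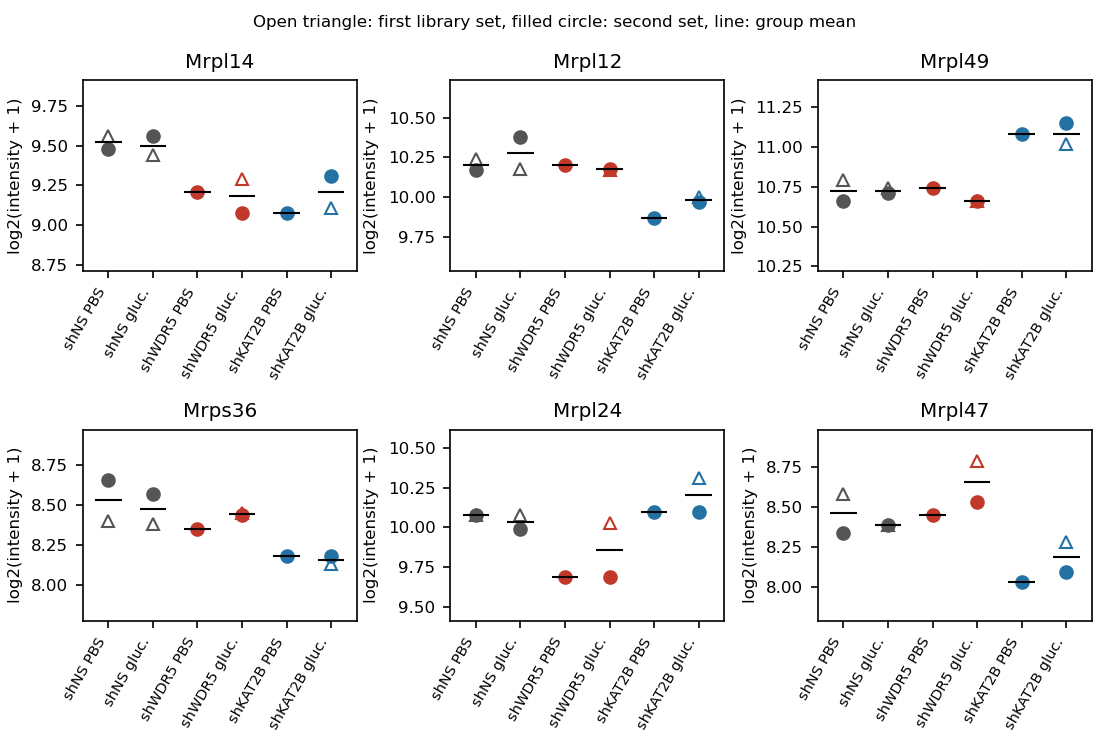
Log2 intensity of the 6 members called in a comparison of arms (y axis, a panel each) in the 6 groups (x axis), with open triangles for the first library set, filled circles for the second and lines for group means. The shKAT2B points of Mrpl49 lie above all others and those of Mrpl12 and Mrps36 below all others, while Mrpl14 is lower in both depletions.

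Members nearest to the threshold under shKAT2B were Mrpl33 (-0.25 ± 0.08, limma adjusted p = 0.0588), Mrps18a (-0.18 ± 0.06, 0.0659) and Mrps15 (-0.28 ± 0.09, 0.0751), none of which passed. On the higher side Mrpl28 came closest after Mrpl49 (0.16 ± 0.08, 0.234). With the library set as a term 12 members were called, 11 lower and 1 higher (Mrpl49), beside 41.5% of all genes (21.5% higher and 20.1% lower). Those lower were Mrpl12, Mrpl14, Mrpl19, Mrpl27, Mrpl33, Mrpl47, Mrpl50, Mrps5, Mrps15, Mrps18a and Mrps36, from -0.15 to -0.37. With the letter block 9 were called, 8 lower and 1 higher, beside 29.6% of all genes (12.6% higher and 16.9% lower), and on the second set alone 10 were called, beside 37.2%. The 4 members called without these terms were called in both fits. Without the shKAT2B PBS library the count was 1, and without shKAT2B glucagon B, shNS PBS B or shNS glucagon B it was 2. The share of all genes called in these smaller fits is not given, so the lower counts are not read as results about the members.

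A few further members were named for their roles. Mrps16, a bacterial S16 homologue, differed by 0.03 ± 0.09 under shWDR5 and 0.03 ± 0.09 under shKAT2B, and Mrps22, a mitochondria-specific protein, by -0.14 ± 0.06 and -0.07 ± 0.06. Mrpl3, an early-binding large-subunit protein, differed by 0.05 ± 0.06 and 0.01 ± 0.06, and Mrpl44 by 0.08 ± 0.08 and -0.14 ± 0.08. Mrps12, named above, differed by -0.05 ± 0.09 and -0.05 ± 0.09. None of these 5 genes passed (limma adjusted p from 0.198 to 0.949), and their 95% intervals reached at most -0.31 on the lower side and 0.25 on the higher. The 3 Mrps18 genes encode related proteins, of which Mrps18a belongs to the large subunit. Their shKAT2B differences were -0.18 ± 0.06 (Mrps18a), -0.10 ± 0.11 (Mrps18b) and -0.03 ± 0.08 (Mrps18c). Mrps30, also of the large subunit, differed by 0.07 ± 0.09 under shWDR5 and -0.14 ± 0.09 under shKAT2B (adjusted p = 0.352).

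Set against each other, the 2 depletions differed at 4 members, 2 higher and 2 lower in shKAT2B, beside 22.7% of all genes tested (11.2% higher and 11.5% lower). Mrpl49 was higher in shKAT2B by 0.40 ± 0.06 (limma adjusted p = 0.00217) and Mrpl12 lower (-0.24 ± 0.07, 0.0398). Mrpl24 and Mrpl47 were named after their values were seen. Mrpl24 stood at 10.10, 10.31 and 10.10 in the shKAT2B libraries, all above the shWDR5 libraries given above, a difference of 0.37 ± 0.10 (0.0313). Rrnad1, which overlaps Mrpl24 in the RefSeq table, differed by 0.32 ± 0.10 (0.0497).

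Mrpl47, the homologue of bacterial L29 near the exit tunnel, stood at 8.45, 8.79 and 8.53 in the shWDR5 libraries and 8.03, 8.28 and 8.09 in the shKAT2B libraries, with the shNS libraries from 8.34 to 8.58. The 2 depletions did not overlap, and the difference was -0.46 ± 0.11 (limma adjusted p = 0.0179). A second, dimmer feature of Mrpl47 (mean 6.83) went the other way against shNS, with -0.10 under shWDR5 and 0.08 under shKAT2B where the feature used gave 0.15 and -0.31. With the mean of both features the difference between depletions was -0.14 and did not pass (0.238). Of these calls, Mrpl49 held in every fit with 1 library left out, while the others were lost without the shKAT2B PBS library (adjusted p = 0.158 for Mrpl12, 0.086 for Mrpl24 and 0.0852 for Mrpl47), and Mrpl12 also with no filter (0.0567), with quantile normalization (0.0644) or without any 1 library other than the shNS glucagon pair (up to 0.18). Mrpl24 was also lost without shWDR5 PBS A (0.144), shWDR5 glucagon B (0.109), shKAT2B glucagon A (0.089) or shNS glucagon A (0.0523), and Mrpl47 without shKAT2B glucagon B (0.0692) or shWDR5 glucagon A (0.0515). With the library set as a term 16 members were called (5 higher and 11 lower, beside 50.4% of all genes, 25.9% higher and 24.6% lower). With the letter block 8 were called (3 higher and 5 lower, beside 36.1%, 18.1% and 17.9%), and on the second set alone 14 (beside 45.3%).

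Glucagon for 90 min left the members without a call. In limma's fit 0 of 77 passed, beside 0.923% of all genes (106 genes, 78 higher and 28 lower), and 3 members had an unadjusted p below 0.05. Those were Mrps31 (0.20 ± 0.07, adjusted p = 0.558), Mrps27, a pentatricopeptide-repeat protein (-0.19 ± 0.08, 0.92), and Mrpl40 (0.09 ± 0.04, 0.962). Within arms and sets the Mrps31 difference was 0.11 and 0.16 in shNS (first and second set), 0.05 in shWDR5 and 0.33 in shKAT2B. The called genes Mrpl14, Mrpl12, Mrpl49 and Mrps36 had glucagon differences of 0.02, 0.06, -0.02 and -0.01. The median half-width of the 95% interval for a member was 0.16, and the widest was 0.56, that of Mrps21. No member was called with the library set as a term, with the letter block or on the second set alone (0 in each, with 3, 11 and 2 at an unadjusted p below 0.05), beside 3.35%, 2.5% and 2.69% of all genes called. The share of all genes at that unadjusted p is not given for glucagon, so these unadjusted counts are not read as results about the members.

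The coactivator gene Ppargc1a rose under glucagon in the same libraries. In shNS cells its level was 9.02 and 8.85 with PBS against 10.78 and 10.77 with glucagon. In shWDR5 cells it was 9.45 with PBS against 10.97 and 10.95, and in shKAT2B cells 8.76 with PBS against 10.51 and 10.35. Every glucagon library was higher than every PBS library, and the shared difference was 1.70 ± 0.07 (limma adjusted p = 1.11e-05, 3.24-fold). Nrf1 and Gabpa, the genes of NRF1 and the DNA-binding subunit of GABP, had glucagon differences of -0.04 ± 0.07 (0.962) and 0.01 ± 0.06 (0.98).

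Whether the glucagon difference itself depended on the depletion was tested by an interaction of glucagon with each hairpin. In limma's fit 0 of 77 members were called for either hairpin, beside 0.0% of all genes for both, and 0 members had an unadjusted p below 0.05 for either (20 and 36 of all genes did). These intervals were wider, since each rests on a group of 1 library: 49 members for WDR5 and 40 for KAT2B had a 95% interval within 1.5-fold. With the letter block 2 members were called for each hairpin, beside 4.75% and 12.1% of all genes: Mrps18b (0.41, adjusted p = 0.0357) and Mrps21 (-0.81, 0.0122) for WDR5, and Mrps21 (-0.96, 0.0036) and Mrps35 (0.68, 0.0122) for KAT2B. With the library set as a term 0 were called for either hairpin, beside 0.0% and 0.0174% of all genes, with 0 members at an unadjusted p below 0.05. The letter block places the lone PBS libraries with the other A libraries, while their values lay with the second set.

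The 2 largest differences among the members, those of Mrps21 and Mrps35, ran between the library sets and not between the study's groups. Mrps21, the homologue of bacterial S21, stood at 11.84, 11.87, 11.88 and 11.79 in the first set and between 12.32 and 12.73 in the 6 libraries of the second. Mrps35 and Mrpl15 went the other way, with 9.02 to 9.15 against 8.29 to 8.67 for Mrps35, and 10.30 to 10.45 against 9.92 to 10.03 for Mrpl15. Each of these genes was separated without overlap, by 0.74 ± 0.06, -0.51 ± 0.06 and -0.37 ± 0.04. Because the sets were read from these same libraries over all genes, the values are a description. For 18 of the 77 members (23.4%) the sets did not overlap, 6 higher and 12 lower in the second, against 19.4% of all genes tested. Each of the 4 groups with 2 libraries had 1 library in each set, and both lone PBS libraries were in the second.

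**Figure D4:**
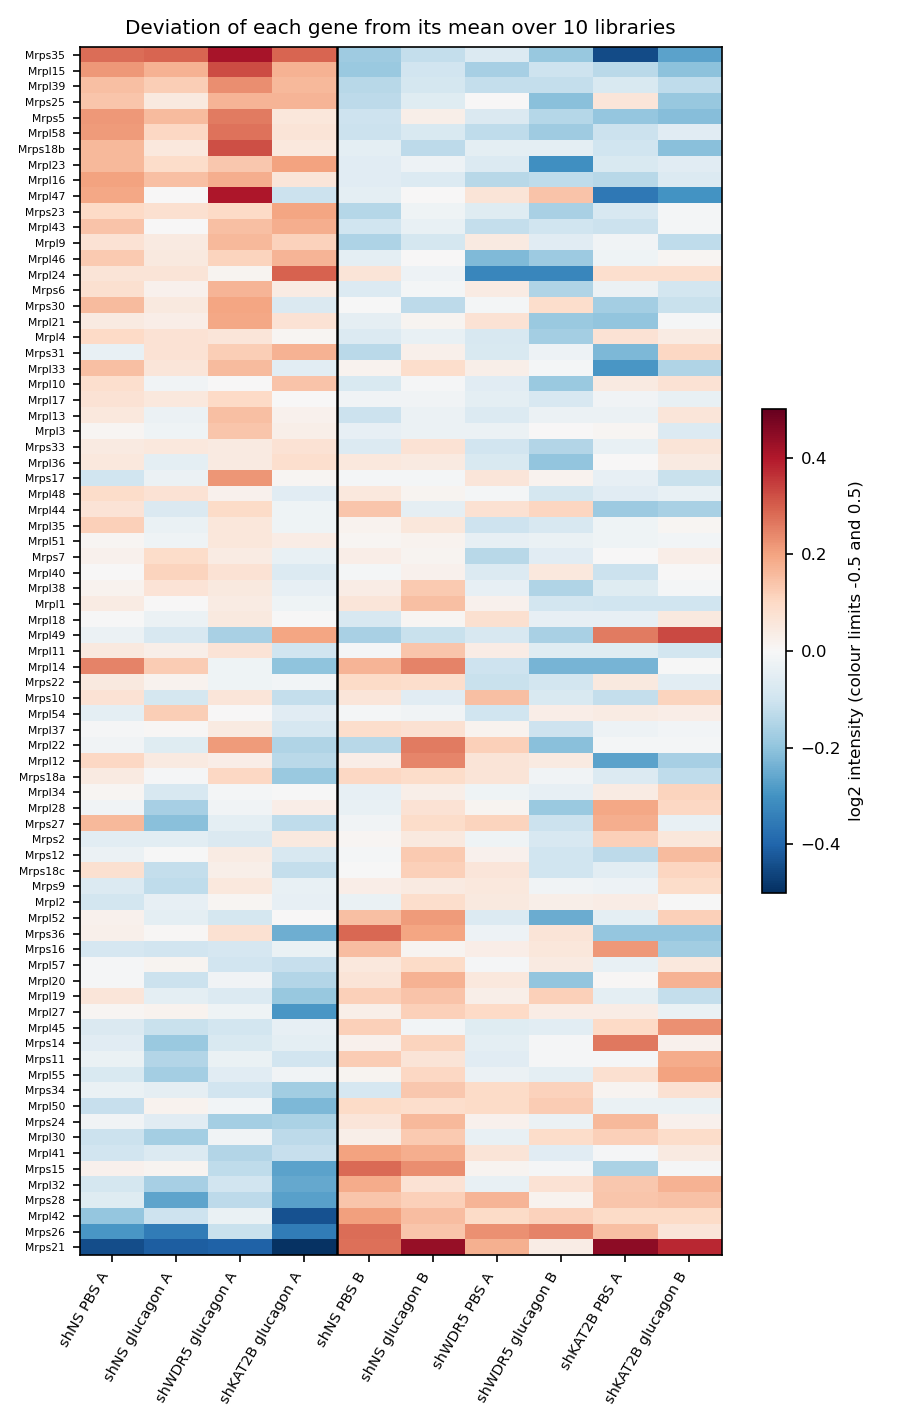
Deviation of each of the 77 genes (rows) from its mean over the 10 libraries (columns), in log2 intensity, with colour limits of -0.5 and 0.5, genes ordered by second minus first library set and a black line between the sets. The colour changes at the black line for the genes at the top (Mrps35, Mrpl15) and bottom (Mrps21), and between the hairpins for few genes, Mrpl49 and Mrpl14 among them.

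Genes that work with the mitochondrial ribosome were read from 5 lists. Of 4 further ribosomal proteins with other symbols (Dap3, Ptcd3, Chchd1 and Gadd45gip1) limma called 0 in any comparison of arms or treatments (1 had an unadjusted p below 0.05, between the 2 depletions). With the library set as a term Gadd45gip1 was called lower under shWDR5 (-0.21, limma adjusted p = 0.0263), Dap3 higher under shKAT2B (0.13, 0.0399), and Ptcd3 lower in shKAT2B than in shWDR5 (-0.16, 0.0339). With the letter block 0 of the 4 were called. Of 11 mitochondrial translation factors, 1 fell under shWDR5 (median -0.14 over the list), Mrrf, the ribosome recycling factor. Mrrf stood at 11.23, 10.94, 11.12 and 10.89 in the shNS libraries (PBS A and B, glucagon A and B), at 10.39, 10.53 and 10.23 in the shWDR5 libraries and at 10.81, 10.99 and 10.86 in the shKAT2B libraries. The shWDR5 libraries were lower than all others. The difference from shNS was -0.66 ± 0.10 (limma adjusted p = 0.00678, 1.58-fold), and -0.59, -0.66 and -0.55 within the sets. Without the shWDR5 PBS library it was -0.66 (0.0511).

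Other genes of these lists were called as follows. Under shWDR5, 4 of the 62 genes were called (6.45%, beside 10.9% of all genes), Mrrf among them. C1qbp, a matrix protein that supports mitochondrial translation, rose by 0.20 ± 0.05 (limma adjusted p = 0.0281, 1 of 25 assembly genes). Among 9 nuclear regulators Myc rose by 0.37 ± 0.09 (0.0345) and Ppargc1a by 0.32 ± 0.08 (0.0444). C1qbp lost its call without any 1 library other than shNS PBS B and the shKAT2B glucagon pair (adjusted p up to 0.106). Myc lost it without any 1 of the 3 shWDR5 libraries, shNS PBS B or the shNS glucagon libraries (up to 0.128), and Ppargc1a without any 1 library other than shKAT2B glucagon A (up to 0.286).

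Under shKAT2B 0 of the 62 genes of these lists were called in limma's fit, against the 15.6% above, with 6 at an unadjusted p below 0.05. That 0 depended on the library sets: with the set as a term 15 were called (11 higher and 4 lower), beside 41.5% of all genes, and with the letter block 6, beside 29.6%. Among them was Eral1, which chaperones the small-subunit rRNA (-0.35, limma adjusted p = 0.00022 with the set term, and -0.53, 0.00114 with the block). Its differences in first-set glucagon, second-set glucagon and second-set PBS libraries were -0.40, -0.44 and -0.21, all smaller in size than the block value. Under shWDR5 these fits called 16 and 9 (beside 36.8% and 26.7%), between the depletions 19 and 10 (beside 50.4% and 36.1%), and under glucagon 3 and 2 (beside 3.35% and 2.5%). With neither term, the only calls under glucagon in the 5 lists were Ppargc1a, given above, and Myc (-0.63 ± 0.08, limma adjusted p = 0.00576). Between the depletions 8 of the 62 were called (12.9%, beside 22.7% of all genes). Mrrf (0.50 ± 0.11, 0.0115), Mtfmt, which formylates the initiator methionyl-tRNA (0.36 ± 0.11, 0.0422), and the release factor gene Mtrf1l (0.24 ± 0.07, 0.0449) were higher in shKAT2B. The large-subunit assembly GTPase Gtpbp10 (-0.40 ± 0.10, 0.0168), C1qbp (-0.26 ± 0.05, 0.00603), the mitochondrial poly(A) polymerase Mtpap (-0.30 ± 0.08, 0.0208), Myc (-0.59 ± 0.10, 0.00306) and Ppargc1a (-0.58 ± 0.09, 0.00217) were lower there. Of these 8, Mtrf1l lost its call without any 1 library other than shWDR5 glucagon A (adjusted p up to 0.192). Mtfmt lost it without either shNS glucagon library, shWDR5 PBS A, shWDR5 glucagon B, shKAT2B PBS A or shKAT2B glucagon A (up to 0.181). Mtpap lost it without shKAT2B PBS A, shKAT2B glucagon B, shWDR5 PBS A or shWDR5 glucagon A (up to 0.0827), and Gtpbp10 without shKAT2B PBS A, shKAT2B glucagon B or shWDR5 glucagon A (up to 0.0709). Mrrf lost it without shWDR5 PBS A (0.0513), and C1qbp, Myc and Ppargc1a kept it whichever library was left out.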

How the data were processed

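Total RNA of 10 hepatocyte libraries was measured on Affymetrix Mouse Gene arrays. The deposited table holds intensity on a linear scale, 4.47 to 22694 over 26913 features. Per the submitters' processing notes, the software was Affymetrix Expression Console 1.1.1. The normalization method and the genome build are not given in the sources used here. Whatever between-array normalization the authors applied is already in the values, so a change shared by most genes could not be seen.

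Features were named from the platform annotation (17873 with 1 symbol, 1128 with several, 7912 with none), and the brightest feature of each of 16401 genes was kept. After log2(intensity + 1), 30% of genes, those lowest by mean, were dropped, leaving 11480. Of the 77 members, 8 had a second feature.

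limma 3.58.1 in R 4.3.3 fitted arm plus treatment with a mean-variance trend (6 residual degrees of freedom), and the 6 groups for the interactions (4 degrees). Groups of 1 library were assumed to vary like the others. Tests were two-sided. The fit was also run on simulated data with independent noise in each library and no library sets. That run cannot show how the fit behaves with such sets. Tables were made in Python 3.11.15 (numpy 2.4.6, pandas 2.3.3) and figures with matplotlib 3.10.9.

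Letters A and B were checked as pairs: over 11480 genes, same-letter deviations of the 4 groups with 2 libraries correlated between 0.721 and 0.844 in all 6 pairs of groups. The lone PBS libraries, lettered A, had the sign of the B libraries on the first residual component (78% of the residual variance). A fit with these library sets as a term was therefore run beside the fit with the letter as a block. The set was read from the same data, so p-values of fits with it are too small, and the fit on the second set alone has 2 residual degrees of freedom and 1 library a group.

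The named genes are, for each hairpin against shNS and for glucagon, up to 10 called members with the highest and 10 with the lowest difference, or up to 3 with the smallest p where fewer than 5 were called. Added to these are the 3 brightest and 3 dimmest members, members with known special roles, the hairpin targets, called genes of the 5 mitochondrial lists, Ppargc1a, Nrf1 and Gabpa. Members and lists were chosen with earlier results of these data known. Other settings tried were other filters, a pseudocount of 16, quantile normalization, median-centred libraries, no trend, the mean of a gene's features and each library left out in turn. Promoter windows and overlapping genes come from RefSeq (GRCm38.p6).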

Additional observations from a re-analysis of the deposited data

How the results depend on the processing

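The medians of the members stayed near 0 under the settings tried: leaving out 1 library at a time gave -0.050 to 0.002 for shWDR5, -0.045 to -0.019 for shKAT2B, -0.013 to 0.018 for glucagon and -0.050 to 0.013 for shKAT2B minus shWDR5. On the second library set alone the last was 0.03. Counts of called members depended on how the library sets were treated. For shWDR5 the count of 1 became 5 with the library set as a term, 3 with the replicate letter as a block, 6 on the second set alone and 0 with no filter. For shKAT2B the count of 4 became 12, 9 and 10 with the set term, the block and the second set alone, and for shKAT2B minus shWDR5 16, 8 and 14. Background shares rose with them, so these counts do not single out the members. For the interactions the letter block gave 2 calls for each hairpin where there had been 0. Leaving out 1 library at a time gave 0 to 1 calls for shWDR5, 1 to 4 for shKAT2B and 1 to 4 for shKAT2B minus shWDR5. The lowest counts for both comparisons that involve shKAT2B came without the shKAT2B PBS library. Shares of all genes are not given for fits with 1 library left out, so those counts are not read as results about the members. No glucagon call appeared under any of these settings (0 members), and no named gene turned its direction where it had been called. The other settings (a pseudocount of 16, quantile normalization, median-centred libraries, no trend, a stricter filter and the mean of a gene's features) kept the counts within 1.5 times. Without its lone PBS library, the interaction of that hairpin could not be fitted.

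Precision was set by 10 libraries and by the spread between the library sets. The median half-width of a member's 95% interval was 0.19 under either hairpin and 0.16 under glucagon, so a change shared by all members of under that size could be missed in single genes.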

Other observations

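Libraries of the same group differed less at the members than at genes in general. The median absolute difference between libraries A and B over the 77 members was 0.10 in shNS PBS, 0.12 in shNS glucagon, 0.15 in shWDR5 glucagon and 0.13 in shKAT2B glucagon, against 0.16, 0.15, 0.19 and 0.17 over all genes tested. The member with the largest difference was Mrps21 in shNS PBS (0.72), shNS glucagon (0.85) and shKAT2B glucagon (0.87), and Mrps35 in shWDR5 glucagon (0.60). Next to Mrps21 and Mrps35, the second library set differed most from the first at Mrps26 (0.45) and Mrpl15 (-0.37).

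Of the 8 members with 2 features, the pair gave like shKAT2B differences for Mrpl23 (-0.02 and -0.03), Mrpl41 (-0.07 and -0.07), Mrps33 (0.00 and 0.01), Mrps36 (-0.34 and -0.39) and Mrps5 (-0.20 and -0.17). The features of Mrpl51 gave -0.01 and -0.18, those of Mrpl27 -0.13 and -0.05, and those of Mrpl47 -0.31 and 0.08.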
